A study of Homo sapiens with 6 samples.

Results

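The genes of the proteasome were followed in SKOV3 cells, an established human ovarian cancer cell line, after silencing of EIF5A2. All gene rows whose Ensembl identifier belonged to a protein-coding gene with a symbol starting PSMA, PSMB, PSMC, PSMD, PSME, PSMF or PSMG were taken, which gave 50 of the 58825 genes in the count table. The study compared cells transfected with a siRNA against EIF5A2 (si-EIF5A2, 3 libraries) with cells given a negative control siRNA (NC, 3 libraries), by sequencing of mRNA 48 hours after transfection. It asked which genes change when EIF5A2, a translation factor of the eIF5A family, is lost from these cells. Both groups shared the same line and the same transient transfection, and the siRNA acts on the whole culture. The labels do not name separate cultures, so the p-values measure the spread between these 3 libraries of each group, which may be technical.

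The proteasome degrades proteins that carry ubiquitin chains. Its 20S core is a barrel of outer alpha rings and inner beta rings, in which PSMB5, PSMB6 and PSMB7 are the cutting subunits, and the 19S particle that caps the barrel binds, unfolds and deubiquitinates the substrate through a base with 6 ATPases and a lid. Dedicated chaperones assemble both parts, other activators (PSME genes) can replace the 19S cap, and the immunoproteasome carries the interferon-inducible cutting subunits PSMB8, PSMB9 and PSMB10 in place of the usual ones. In cancer cells the proteasome is a drug target, and its genes are often transcribed together under NFE2L1.

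EIF5A2 itself was measured at 27.8, 29.8 and 29.9 CPM (read count relative to the library total, with TMM scaling) in NC and at 2.76, 4.04 and 4.27 in si-EIF5A2, that is 12.7% of the NC mean. The libraries held 46900204 to 74142267 estimated counts. Correlations of log2 CPM were 0.984 to 0.987 within groups and 0.954 to 0.958 between them. No library stood far apart among the 6772 genes averaging 20 CPM or more. Each was over 2-fold above both others of its group at 12 to 29 genes and over 2-fold below both at 32 to 38. The epithelial genes KRT7, KRT8, KRT18, PAX8 and ERBB2 were present in all 6 libraries, while EPCAM (1.15 to 1.68 CPM) and KRT19 (2.24 to 3.85 CPM) were low. The summed level of these 7 genes was 1506 to 1673 CPM in NC and lower, 956 to 1168 CPM, in si-EIF5A2, and its part in the results was not tested. The summed CPM was at most 0.0565 for 4 leukocyte markers, 2.37 for 3 endothelial markers and 2.29 for 3 fibroblast markers.

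Most proteasome genes were modestly higher after EIF5A2 silencing. The 50 genes together made up 0.774% to 0.782% of all counts in NC and 0.972% to 1.05% in si-EIF5A2. Their summed level was 7863, 7803 and 7803 CPM in NC and 9624, 10674 and 9957 CPM in si-EIF5A2, so that every si-EIF5A2 library lay above every NC library and the ratio of the means was 1.29. PSMD2 alone carried 1392 to 2252 CPM, and the ratio was 1.26 without it. In RNA from whole cultures, a change in the RNA per cell and a change in the mix of cells cannot be told apart. PSMA8, the testis form of an alpha subunit, and PSMB11, the thymus form of a beta subunit, were listed at 0 counts in all 6 libraries (a 0 allows up to 3 fragments, by counting error alone) and were not tested.

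Of the 48 genes tested, 27 (56.2%) were higher and 5 (10.4%) lower at an adjusted p under 0.05 by the quasi-likelihood test of edgeR, adjusted by the Benjamini-Hochberg method, where 18.0% of the 16208 genes tested were higher and 18.9% lower. The members were more deeply counted than most genes, with a median of 133 CPM against 13.2 for all genes tested. Among genes averaging 20 CPM or more, a level chosen after the values were seen, 28.1% of 6772 were higher and 22.3% lower, while 26 of the 44 members at that level (59.1%) were higher and 3 lower. The median log2 fold change of si-EIF5A2 over NC was 0.36 (quartiles 0.09 and 0.50) over the members and -0.01 over all genes tested, with 39 of 48 members and 49.3% of all genes above 0. The si-EIF5A2 libraries lay wholly above the NC libraries for 31 members and wholly below for 5, against 24.7% and 26.5% of all genes, and the groups overlapped for the other 12.

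The changes were small. When a fold change over 1.5 was also required, 6 members (12.5%) were called higher (PSMC3, PSMA4, PSMD13, PSMD7, PSMC6 and PSME4) and 4 (8.33%) lower (PSMG2, PSMB10, PSMC3IP and PSME3IP1), where 11.1% and 13.6% of all genes tested were called. By this stricter rule the shares of the members were thus near those of all genes. With a trend on GC content and length removed, 16 members were called higher and 2 lower, the median log2 fold change of all genes moved to 0.09, and the split of all genes at the adjusted p moved to 23.4% higher and 16.2% lower. The plot of fold changes by role shows where the members differed.

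**Figure D1:**
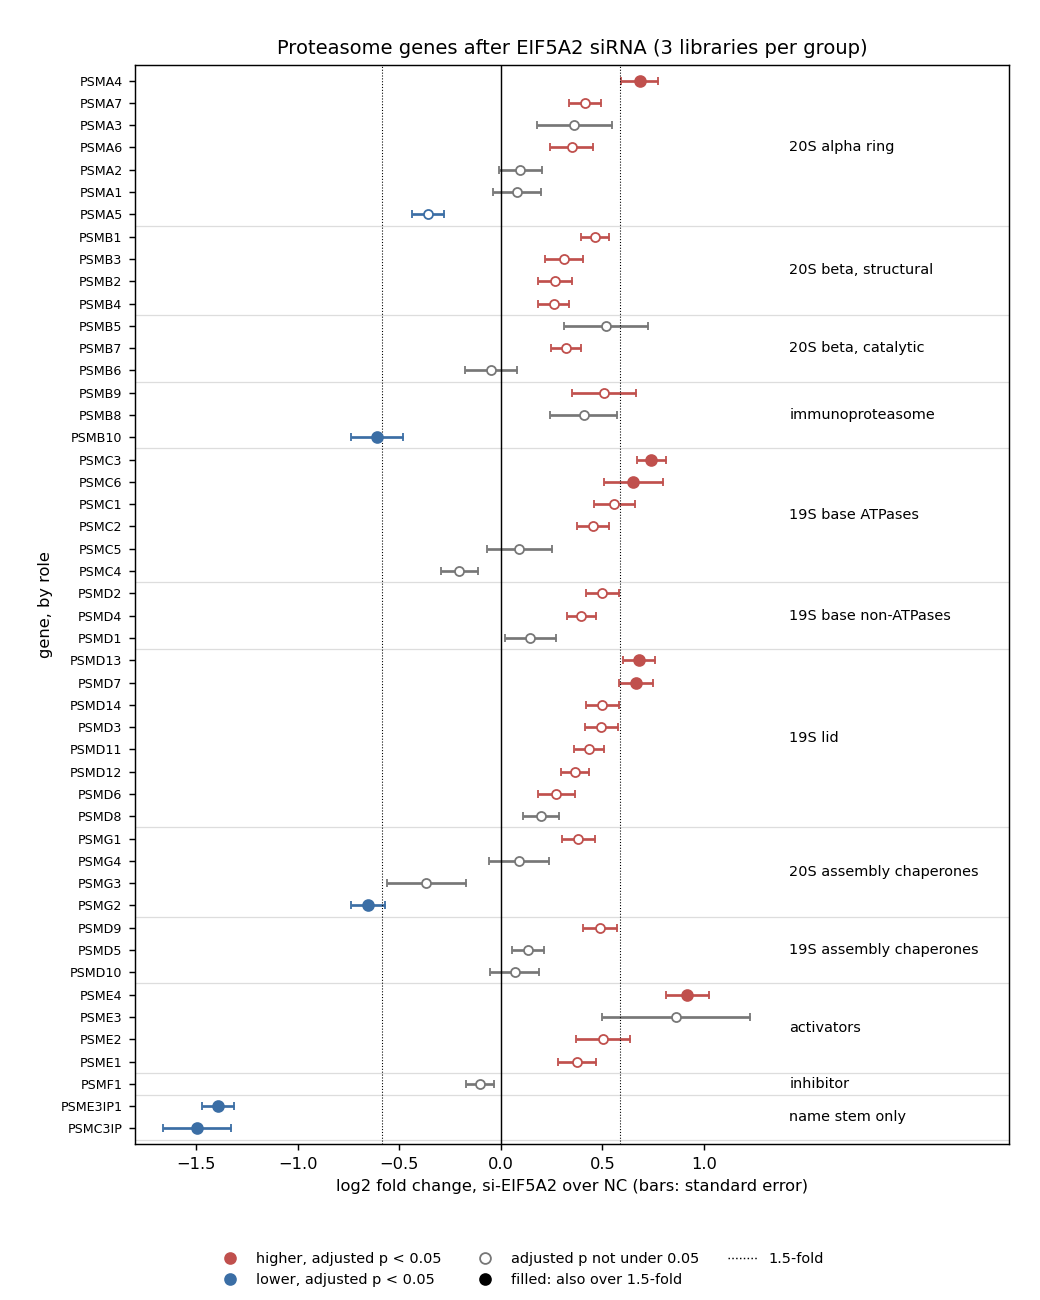
Log2 fold change of si-EIF5A2 over NC for the 48 proteasome genes tested (x axis, bars give the standard error of the fit), grouped by role on the y axis, with 3 libraries per group. Red points (27) were higher and blue points (5) lower at an adjusted p under 0.05, grey points (16) were neither, filled points also passed a fold change of 1.5 (dotted lines), and the lid subunits lie to the right of 0 while the 2 genes that only share the name stem lie farthest to the left.

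**Figure D2:**
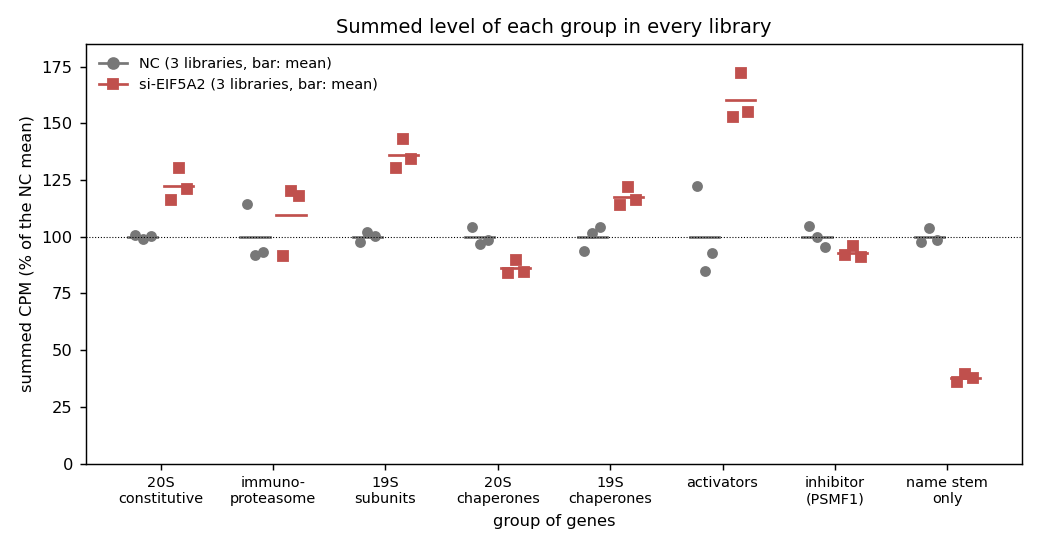
Summed CPM of each group of proteasome genes in every library (y axis, percent of the NC mean of that group), with NC libraries as grey circles, si-EIF5A2 libraries as red squares and bars at the means. The 19S subunits, the 20S constitutive subunits, the 19S assembly chaperones and the activators were higher in every si-EIF5A2 library than in any NC library, and the 20S assembly chaperones and the name-stem genes lower.

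The alpha rings of the 20S core form the gate of the barrel. Of their 7 genes tested, 3 (42.9%) were higher (PSMA4, PSMA6 and PSMA7) and 1 (14.3%) was lower (PSMA5). Over all genes tested 18.0% were higher and 18.9% lower. Among genes averaging 20 CPM or more, as all 7 alpha genes did, 28.1% were higher and 22.3% lower. The median log2 fold change of the alpha genes was 0.35. PSMA4 was measured at 95.3, 100.1 and 117 CPM in NC and at 169, 165 and 167 CPM in si-EIF5A2, and rose by 0.68 ± 0.09 on the log2 scale (SE, edgeR adjusted p = 0.000674). PSMA5 was measured at 178, 178 and 189 CPM in NC and at 132, 153 and 140 CPM in si-EIF5A2, and fell by 0.36 on the log2 scale (SE 0.08, edgeR adjusted p = 0.00858). Neither gene's groups overlapped, and these members of one ring moved in opposite directions. The counts of PSMA4 were 53.6%, 56.4% and 62.0% of those of PSMA5 across NC replicates 1 to 3, against 128%, 108% and 119% across si-EIF5A2 replicates 1 to 3, a ratio formed after the values were seen.

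PSMA7 rose by 0.41, from 289 ± 16.3 to 385 ± 26.0 CPM (SD, n = 3). PSMA6 rose by 0.35 with an adjusted p of 0.0336 in edgeR's fit, which lay between 0.0949 and 0.114 when NC replicate 1 or 2 or si-EIF5A2 replicate 1 or 3 was left out. PSMA1 (0.08), PSMA2 (0.10) and PSMA3 (0.36) had log2 fold changes above 0 that did not pass, and their groups overlapped. PSMA3 passed without NC replicate 3, at 0.57 and an adjusted p of 0.0210 in edgeR's fit. For PSMA1, PSMA2 and PSMA6, 24.7%, 14.6% and 14.1% of the exon bases are shared with another annotated gene on the same strand.

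All 4 structural beta genes were higher, where 18.0% of all genes tested were. Of genes averaging 20 CPM or more, as all 4 did, 28.1% were higher. PSMB1 was at 223, 228 and 231 CPM in NC and at 298, 329 and 310.5 CPM in si-EIF5A2, and rose by 0.46 on the log2 scale, the largest change of the 4 (edgeR adjusted p = 0.00125). PSMB3 (0.31), PSMB2 (0.27) and PSMB4 (0.26) rose less, with edgeR adjusted p of 0.0331, 0.0352 and 0.0320. Their si-EIF5A2 libraries lay wholly above the NC libraries, yet these 3 calls depended on single libraries. PSMB2 and PSMB4 missed the threshold without NC replicate 2 or 3 or si-EIF5A2 replicate 2 or 3, and PSMB3 without any one of the NC libraries or si-EIF5A2 replicate 2 or 3, with edgeR adjusted p of 0.059 to 0.12.

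Of the 3 constitutive cutting subunits, 1 (33.3%) passed the test, where 18.0% of all genes tested were higher. Of genes averaging 20 CPM or more, as all 3 did, 28.1% were higher, near the share of these subunits. PSMB7, the trypsin-like subunit, was at 431, 429.5 and 397 CPM in NC and at 496, 558 and 516 CPM in si-EIF5A2, and rose by 0.32 ± 0.07 (SE, edgeR adjusted p = 0.0114). PSMB5, the chymotrypsin-like subunit and the main target of proteasome inhibitor drugs, was at 195, 191 and 130.4 CPM in NC and at 197, 298 and 244 CPM in si-EIF5A2. Its groups did not overlap, but NC replicate 3 and si-EIF5A2 replicate 1 lay far from their groups, and its log2 fold change of 0.52 ± 0.21 did not pass (SE, edgeR adjusted p = 0.0996). It passed by DESeq2 (0.51, adjusted p = 0.0234) and in edgeR with the GC and length trend removed (0.68, adjusted p = 0.0307). PSMB6, the caspase-like subunit, was at 104, 89.1 and 119 CPM in NC and at 87.5, 111 and 104 CPM in si-EIF5A2, with overlapping groups and a log2 fold change of -0.05 ± 0.13 (SE).

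The immunoproteasome subunits were low and split by gene. PSMB9, which replaces PSMB6, was at 6.39, 5.63 and 6.51 CPM in NC and at 7.59, 10.2 and 8.57 CPM in si-EIF5A2, and rose by 0.51 ± 0.16 on the log2 scale (SE, edgeR adjusted p = 0.0376). That call was lost when any library other than si-EIF5A2 replicate 1 was left out (edgeR adjusted p 0.0700 to 0.119). PSMB8, which replaces PSMB5, was at 33.2, 26.3 and 26.3 CPM in NC and at 29.6, 41.6 and 42.7 CPM in si-EIF5A2, where replicate 1 lay within the NC range, and its 0.41 ± 0.16 did not pass (SE, edgeR adjusted p = 0.0912). Without that library PSMB8 stood at 0.55 with an adjusted p of 0.0203 in edgeR's fit.

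PSMB10, which replaces PSMB7, went down. Its levels were 22.4, 17.9 and 17.7 CPM in NC and 12.3, 13.2 and 12.4 CPM in si-EIF5A2, a log2 fold change of -0.61 ± 0.13 (SE, edgeR adjusted p = 0.0068). Without NC replicate 1, the highest NC library, it fell by 0.49 and no longer passed the fold of 1.5, while the adjusted p of 0.0189 in edgeR's fit still passed. With the GC and length trend removed it stood at -0.37, also short of that fold (edgeR adjusted p = 0.0173). An annotated same-strand gene covers 34.8% of the exon bases of PSMB10, so its reads may in part come from there. As a percent of the constitutive gene it replaces, PSMB10 went from 4.61 ± 0.52 to 2.42 ± 0.06, PSMB9 from 5.97 ± 0.46 to 8.69 ± 0.46 and PSMB8 from 17.0 ± 3.22 to 15.5 ± 1.83 (SD, n = 3). The groups overlapped only for PSMB8 over PSMB5.

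Of the 17 genes of 19S subunits, 13 (76.5%) were higher and none lower by the adjusted p, beside 18.0% and 18.9% of all genes tested. Among genes averaging 20 CPM or more, as all 17 did, 28.1% were higher and 22.3% lower. The summed level of the 17 genes had a ratio of 1.36 between the group means. Without the 4 that did not pass (PSMC4, PSMC5, PSMD1 and PSMD8) the remaining log2 fold changes lay between 0.27 and 0.74. The base of the 19S particle holds the ATPase ring, of which 4 of 6 genes (66.7%) were higher, with a median of 0.51. PSMC3 was at 175, 173 and 169 CPM in NC and at 271, 306 and 286 CPM in si-EIF5A2, and rose by 0.74 ± 0.07 (SE, edgeR adjusted p = 0.000151). PSMC6 was at 47.8, 66.1 and 72.5 CPM in NC and at 98.4, 95.1 and 99.0 CPM in si-EIF5A2. NC replicate 1 was the lowest by far, and the log2 fold change was 0.65 with all libraries (edgeR adjusted p = 0.00981) and 0.49 without that one, which is under the fold of 1.5.

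The ATPases are assembled in pairs, each with a chaperone of its own, and the values are given by these pairs, a grouping chosen after the values were seen. In the pair escorted by PSMD9, PSMC3 and PSMC6 rose by 0.74 and 0.65, and PSMD9 itself rose by 0.49 (edgeR adjusted p = 0.00266). PSMD9 was at 46.8, 50.4 and 49.9 CPM in NC and at 64.8, 73.8 and 67.9 CPM in si-EIF5A2, and 19.9% of its exon bases are shared with other annotated genes on the same strand. In the pair escorted by PSMD5, PSMC1 and PSMC2 rose by 0.56 and 0.45 (PSMC1 by 0.62, over the fold of 1.5, without NC replicate 3 or si-EIF5A2 replicate 3), and PSMD5 stood at 0.13 with an adjusted p of 0.227 in edgeR's fit. In the pair escorted by PSMD10 (gankyrin) and PAAF1, PSMC4 stood at -0.20 (edgeR adjusted p = 0.119) and PSMC5 at 0.09 (edgeR adjusted p = 0.709), with PSMD10 at 0.07 and PAAF1 at 0.20, none of which passed. PSMC4 was at 174, 161 and 154 CPM in NC and at 129, 155 and 141 CPM in si-EIF5A2. PSMC5 was at 238, 180.4 and 210.3 CPM in NC and at 175, 245 and 249 CPM in si-EIF5A2. Both of these had overlapping groups, and both changed sign in some settings. The differences between the pairs were not tested.

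The base also holds 3 subunits without ATPase activity. PSMD2, a scaffold to which ubiquitin shuttle proteins dock, was at 1392, 1570 and 1475 CPM in NC and at 1958, 2252 and 2062 CPM in si-EIF5A2, and rose by 0.50 ± 0.08 (SE, edgeR adjusted p = 0.00182). PSMD4, a receptor for ubiquitin chains, was at 199.8, 199.4 and 196 CPM in NC and at 254, 279.6 and 249 CPM in si-EIF5A2, and rose by 0.40 ± 0.07 (SE, edgeR adjusted p = 0.0033). Both had groups well apart. PSMD1, the other large scaffold, stood at 0.14 with overlapping groups (edgeR adjusted p = 0.422).

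In the lid, the si-EIF5A2 libraries lay above all NC libraries for each of the 8 genes, as for 24.7% of all genes tested. Of the 8, 7 (87.5%) passed, where 18.0% of all genes tested were higher, and 28.1% of those averaging 20 CPM or more, as all 8 did. The median of the 8 was 0.46. PSMD14, the deubiquitinase that removes ubiquitin chains from substrates, was at 89.3, 89.2 and 101 CPM in NC and at 132, 126 and 138 CPM in si-EIF5A2, and rose by 0.50 ± 0.08 (SE, edgeR adjusted p = 0.00205). Its dimer partner PSMD7 was at 85.8, 86.7 and 80.6 CPM in NC and at 146, 129 and 126 CPM in si-EIF5A2, and rose by 0.66 ± 0.08 (SE, edgeR adjusted p = 0.000541). PSMD13, a structural lid subunit, rose the most in the lid, with 145, 157 and 166 CPM in NC against 242, 264 and 244 CPM in si-EIF5A2 and a log2 fold change of 0.68 ± 0.08 (SE, edgeR adjusted p = 0.000359).

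Among the other structural lid subunits, PSMD3 rose by 0.49, PSMD11 by 0.43 and PSMD12 by 0.36. PSMD6 passed narrowly, at 0.27 with an adjusted p just under 0.05 in edgeR's fit, and missed the threshold when any library but NC replicate 3 was left out (0.0546 to 0.16). PSMD8 had the smallest value, 0.20, going from 266 ± 23.1 to 305 ± 20.5 CPM (SD, n = 3), and did not pass (edgeR adjusted p = 0.127).

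Of the 7 genes of assembly chaperones, 2 (28.6%) were higher (PSMD9 and PSMG1) and 1 (14.3%) was lower (PSMG2). Over all genes tested 18.0% were higher and 18.9% lower, and over genes averaging 20 CPM or more 28.1% and 22.3%. The shares of the chaperones were thus near those of other genes. The summed level had a ratio of 1.17 between the group means for the 3 chaperones of the 19S particle and 0.86 for the 4 of the 20S core, a difference that was not tested. PSMG1 and PSMG2 form the dimer on which the alpha ring is built, and they changed in opposite directions. PSMG2 was at 65.9, 64.4 and 66.9 CPM in NC and at 43.5, 43.1 and 38.5 CPM in si-EIF5A2, and fell by 0.66 on the log2 scale (SE 0.08, edgeR adjusted p = 0.000577). PSMG1 was at 33.8, 34.9 and 35.7 CPM in NC and at 45.4, 47.0 and 43.4 CPM in si-EIF5A2, and rose by 0.38 ± 0.08 (SE, edgeR adjusted p = 0.00752). The groups were apart for both genes. PSMG3 and PSMG4, which form the other alpha ring dimer, stood at -0.37 ± 0.20 and 0.09 ± 0.15 (SE), with overlapping groups. POMP, the chaperone of the beta ring, falls outside the naming rule and was at 133, 147 and 153 CPM in NC and at 163, 177 and 165 CPM in si-EIF5A2, a log2 fold change of 0.22 ± 0.08 that did not pass (SE, edgeR adjusted p = 0.0580).

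**Figure D3:**
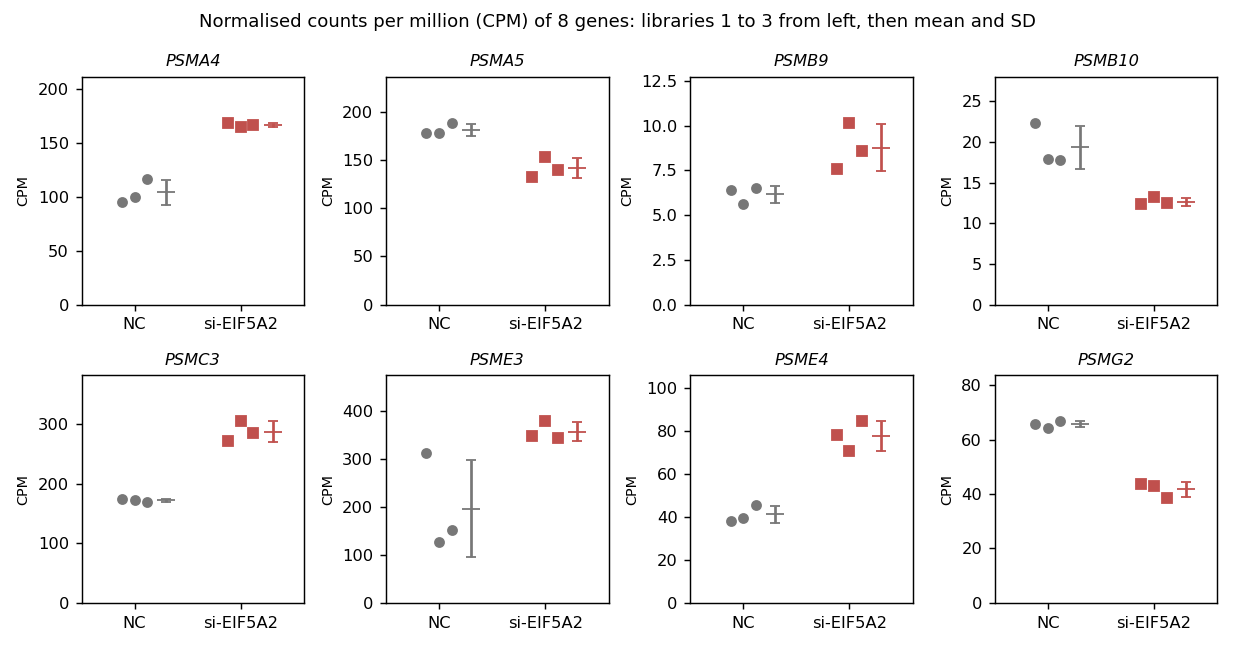
CPM of 8 proteasome genes (y axis, from 0) in each NC library (grey circles) and si-EIF5A2 library (red squares), replicates 1 to 3 from left to right, with the mean and SD beside them. PSMA4, PSMB9, PSMC3 and PSME4 lie higher and PSMA5, PSMB10 and PSMG2 lower in every si-EIF5A2 library, and for PSME3 NC replicate 1 (313 CPM) lies near the si-EIF5A2 libraries.

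The activators bind the ends of the 20S barrel in place of the 19S particle. PSME4, a large monomeric activator of the nucleus, had the largest rise of all members. It was at 38.3, 39.4 and 45.7 CPM in NC and at 78.0, 70.4 and 84.5 CPM in si-EIF5A2, and rose by 0.92 ± 0.11 on the log2 scale (SE, edgeR adjusted p = 0.000371). The lowest si-EIF5A2 library lay far above the highest NC library. PSME1 and PSME2, the interferon-inducible pair that forms a mixed ring, lie 4394 bases apart and end towards each other on chromosome 14 (PSME1 at chr14:24136158-24138967 on the plus strand, PSME2 at chr14:24143362-24147570 on the minus strand, GRCh38). PSME1 rose by 0.37, from 134 ± 10.9 to 174 ± 14.7 CPM, and PSME2 by 0.50, from 73.8 ± 0.98 to 105 ± 20.6 CPM (SD, n = 3). The PSME2 call was lost without any one of the NC libraries (edgeR adjusted p 0.0555 to 0.0609), and si-EIF5A2 replicate 2 was its highest library at 128 CPM.

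PSME3, the nuclear activator that forms a ring of its own, was at 313, 127 and 151 CPM in NC and at 349, 380.1 and 345 CPM in si-EIF5A2. The groups did not overlap, but NC replicate 1 lay close to the si-EIF5A2 libraries, and the log2 fold change of 0.86 ± 0.36 did not pass (SE, edgeR adjusted p = 0.129). Without that library it was 1.36 with an adjusted p of 0.000227 in edgeR's fit, so 1 library decided the call. PSMF1, the protein known as an inhibitor of the 20S core, was at 189, 179.6 and 172 CPM in NC and at 166, 173 and 164 CPM in si-EIF5A2, a log2 fold change of -0.10 ± 0.07 that did not pass (SE, edgeR adjusted p = 0.285).

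The 2 largest falls among the 50 genes belonged to genes that share the name stem and encode no subunit. PSMC3IP encodes a partner of the recombinases of homologous recombination and was at 8.78, 10.9 and 8.76 CPM in NC and at 2.93, 3.49 and 3.65 CPM in si-EIF5A2. It fell to 35.4% of the NC mean (edgeR adjusted p = 0.00031). PSME3IP1, which encodes a nuclear protein that binds PSME3, was at 62.1, 64.5 and 62.6 CPM in NC and at 23.3, 25.1 and 23.7 CPM in si-EIF5A2, and fell by 1.39 on the log2 scale (SE 0.08, edgeR adjusted p = 1.36e-05). Both groups were far apart. Without these genes 6 members were called higher and 2 lower, and the median was 0.37.

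The ratios of counts above compare the groups and say nothing of which gene is the more abundant, since gene lengths differ. Levels of different genes are given as CPM per kilobase of annotated exon. All annotated exons count in this length, also rarely used ones, so the order of the genes depends on the length used. In NC the highest members were PSMD2 at 271, PSMB7 at 235, PSMA7 at 165, PSMB3 at 162 and PSMB4 at 160 CPM per kilobase, and the lowest tested were PSMC3IP at 3.68, PSMB9 at 2.01 and PSMG4 at 1.10. The 20S subunits stand in equal numbers in the barrel, yet the 14 constitutive 20S genes detected ran from 14.9 (PSMA4) to 235 (PSMB7), 15.8-fold. The 19S genes ran from 8.30 (PSMC6) to 271 (PSMD2), 32.7-fold. The length of the longest principal transcript in place of all exons was an alternative chosen after seeing the data. With it these ranges were 18.1-fold and 22.0-fold, with PSMA4 and PSMB7 still at the ends of the first and PSMD11 and PSMD2 at those of the second. PSMA6 moved from rank 18 to 5 among the members and PSMD6 from 40 to 23, while PSMC3 moved from 9 to 17. On that length the lowest members were PSMB9 at 7.90, PSMC3IP at 6.69 and PSME4 at 5.79 CPM per kilobase, and PSMG4 was at 13.7, so its place at the bottom rests on the length used. In si-EIF5A2 PSMA4 was still the lowest constitutive 20S gene, at 23.9 CPM per kilobase, and the range was 12.3-fold. The immunoproteasome genes PSMB10 (10.4), PSMB8 (9.54) and PSMB9 (2.01) all lay below every constitutive beta gene in NC. Across the 48 members the log2 fold change had a Spearman correlation of 0.27 with the mean CPM, -0.09 with GC content and 0.23 with exon length, given as a description over genes that share libraries.

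**Figure D4:**
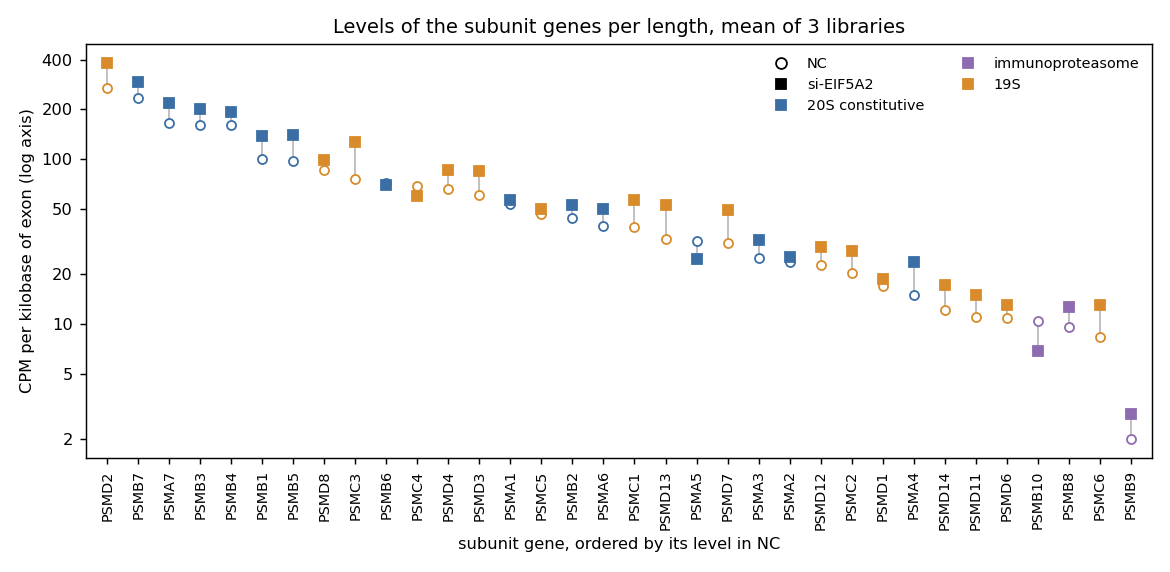
Mean level of each subunit gene in CPM per kilobase of exon (y axis, log scale) in NC (open circles) and si-EIF5A2 (filled squares), ordered by the NC level and coloured by part, with grey lines joining the means of 3 libraries. The levels run from 271 for PSMD2 to 2.01 for PSMB9 in NC, and PSMA5, PSMB6, PSMB10 and PSMC4 are the genes whose square lies below the circle.

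Genes that work with the proteasome under other names were followed as lists. Of 10 partners, 2 (20%) were higher and none lower, near the 18.0% of all genes tested that were higher. Of genes averaging 20 CPM or more, as all 10 partners did, 28.1% were higher. USP14, a deubiquitinase of the 19S particle, rose by 0.65 (edgeR adjusted p = 0.00293), or by 0.56 without si-EIF5A2 replicate 2, which is under the fold of 1.5. AKIRIN2, which carries proteasomes into the nucleus, rose by 0.32, a call lost without NC replicate 2 or si-EIF5A2 replicate 1 or 3 (edgeR adjusted p 0.052 to 0.0685). The ubiquitin receptor ADRM1 (0.09) and the small lid subunit SEM1 (0.27) did not pass.

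Of 9 shuttle and segregase genes, 4 (44.4%) were higher and 2 (22.2%) lower, beside 18.0% and 18.9% of all genes tested. All 9 averaged 20 CPM or more, a level at which 28.1% of genes were higher and 22.3% lower. The segregase VCP, an ATPase that extracts ubiquitinated proteins from complexes and membranes, rose by 0.55 from 570 ± 3.42 to 834 ± 39.0 CPM (SD, n = 3), and its cofactor UFD1 rose by 0.62, or by 0.58 without NC replicate 1, just under the fold of 1.5. RAD23B and UBQLN1, which ferry ubiquitinated proteins to the proteasome, rose by 0.52 and 0.32. The UBQLN1 call was lost without NC replicate 2 or si-EIF5A2 replicate 3 (edgeR adjusted p 0.0609 and 0.0534). UBQLN4 and UBQLN2, of the same ubiquilin family, changed the other way, since UBQLN4 went from 95.4 ± 1.51 to 48.3 ± 1.19 CPM (SD, n = 3) with a log2 fold change of -0.98 (edgeR adjusted p = 3.55e-05), and UBQLN2 stood at -0.49 (edgeR adjusted p = 0.00188). Of the enzymes that activate ubiquitin, UBA6 rose by 0.72 (edgeR adjusted p = 0.000464) and UBA1 stood at -0.06 and did not pass.

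Of 13 genes tied to the transcription of proteasome genes, 5 (38.5%) were higher and 2 (15.4%) lower, beside the same 18.0% and 18.9%. Among genes averaging 20 CPM or more these shares were 28.1% and 22.3%. NFE2L1, which raises proteasome gene transcription when proteasome activity falls, was at 329, 196 and 173 CPM in NC and at 419.7, 437 and 454 CPM in si-EIF5A2. It rose by 0.91 ± 0.25 (SE, edgeR adjusted p = 0.0312). As for PSME3, NC replicate 1 was the high NC library, and without it the value was 1.24 with an adjusted p of 0.000179 in edgeR's fit. The NFE2L1 call was lost without any one of the other libraries (edgeR adjusted p 0.0593 to 0.0955).

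MAFG and MAFF, small MAF proteins that pair with NFE2L1, rose by 1.18 and 1.08, the first with an adjusted p of 0.0509 in edgeR's fit without si-EIF5A2 replicate 2. For MAFG too NC replicate 1 was the high NC library, at 94.6 CPM against 52.2 and 50.2 CPM in NC replicates 2 and 3. STAT3 rose by 1.24 (edgeR adjusted p = 9e-06), and SYVN1, a ubiquitin ligase of the endoplasmic reticulum, by 0.55. FOXM1, a transcription factor of dividing cells, fell by 2.26 on the log2 scale, and NFYC, a subunit of the CCAAT-binding factor NFY, fell by 0.58. NFYC passed the fold of 1.5 without NC replicate 3 (a fall of 0.69) and without si-EIF5A2 replicate 1 (0.61). It also did so with upper-quartile scaling, with both other filters on low counts and with counts divided by their step. The paralog NFE2L2 stood at -0.16 and the NFE2L1 protease DDI2 at 0.21, and neither passed, although DDI2 did without si-EIF5A2 replicate 2 (0.35, edgeR adjusted p = 0.0361).

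The promoters of the members were searched for the core of the antioxidant response element, TGACNNNGC on either strand, to which NFE2L1 and NFE2L2 bind with small MAF proteins. RefSeq windows (GRCh38.p14) of 250 bases before to 50 bases after a start site were given for 44 of the 50 members. The core was found in 15 of the 44 (34.1%), with 17 matches, and in 16.1% of the 27305 genes with a window. The 15 members with a match had a median log2 fold change of 0.37 (13 above and 2 below 0), and the 27 tested members whose windows held none had 0.35. A match is a run of letters, and binding was not measured. The stretches below belong to some of the members that passed the test, while PSMB9, PSMD9, PSME2 and PSMG1 also passed and held a match. Every match shares the bases that the search fixes, so only the NNN bases and the flanks can differ. The stretches are read in the direction of the core, whose 9 bases are in capitals.
PSME4, chr2:53971004-53971042, plus strand: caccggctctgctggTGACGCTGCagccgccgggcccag
PSMA4, chr15:78540645-78540683, plus strand: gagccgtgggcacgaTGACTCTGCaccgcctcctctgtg
PSMD3, chr17:39980755-39980793, plus strand: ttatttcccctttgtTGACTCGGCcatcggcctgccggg
PSMD12, chr17:67366719-67366757, minus strand: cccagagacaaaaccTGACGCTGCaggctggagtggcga
PSMB3, chr17:38752622-38752660, plus strand: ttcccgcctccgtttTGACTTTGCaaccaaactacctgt
PSME1, chr14:24136093-24136131, plus strand: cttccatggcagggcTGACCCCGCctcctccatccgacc
PSMG2, chr18:12658684-12658722, plus strand: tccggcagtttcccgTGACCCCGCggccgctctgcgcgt

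PSME4 and PSMD12 held the same 9 bases, as did PSME1 and PSMG2, although PSMG2 fell while the other 3 rose. The matches began at -34 from the start in PSME4, at -37 in PSMD3 and at -39 in PSMG2, and at -126, -165, -104 and -86 in PSMA4, PSMD12, PSMB3 and PSME1. The PSMA4 match lies in only the most downstream of that gene's 3 windows, and so inside the gene as counted from its first start. The PSMG2 match lies in the upstream of 2 windows (chr18:12658488-12658787), and the other window (chr18:12702792-12703091) held none. Which of these PSMG2 starts was used was not tested. PSMD3 and PSMD9 had a pair of matches each. The CCAAT box, searched on both strands, was found in 22 of the 44 members and in 39.7% of all genes with a window, and the median log2 fold change was 0.36 for members with and without it. PSMA5, which fell, had CCAAT at -83 and -54 and no antioxidant core in its window on chromosome 1, which is shown because it is the alpha gene that moved against its ring, with the CCAAT boxes in capitals.
PSMA5, chr1:109426399-109426698, minus strand: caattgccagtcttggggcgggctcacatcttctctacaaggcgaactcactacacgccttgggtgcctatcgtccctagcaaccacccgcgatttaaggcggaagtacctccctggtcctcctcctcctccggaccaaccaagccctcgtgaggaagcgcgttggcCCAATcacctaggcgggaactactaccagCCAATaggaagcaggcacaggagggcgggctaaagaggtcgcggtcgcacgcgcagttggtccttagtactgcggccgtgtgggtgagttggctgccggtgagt

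Since the immunoproteasome and PSME1 and PSME2 are induced by interferon and serve antigen presentation, genes of interferon control and peptide loading were also read. TAP1, which pumps peptides into the endoplasmic reticulum and lies head to head with PSMB9, was at 42.6, 41.2 and 41.7 CPM in NC and at 86.6, 109.5 and 89.0 CPM in si-EIF5A2, and rose by 1.18 ± 0.11 (SE, edgeR adjusted p = 0.000101). PSMB9 beside it rose by 0.51. The peptidase ERAP1, which trims those peptides, rose by 0.67. TAP2, the partner of TAP1, rose by 0.27, a call lost without NC replicate 1 or 2 or si-EIF5A2 replicate 1 or 3 (edgeR adjusted p 0.0656 to 0.11). NLRC5, an activator of these genes, was at 4.26, 4.42 and 5.47 CPM in NC and at 3.09, 1.92 and 2.36 CPM in si-EIF5A2. It fell by 0.94 on the log2 scale (edgeR adjusted p = 0.0148, and 0.0518 without NC replicate 3). IRF1 (-0.25) and TAPBP (-0.11) did not pass. B2M, the light chain of the presenting molecule, was at 499, 513 and 582 CPM in NC and at 679, 54.2 and 574 CPM in si-EIF5A2, so that si-EIF5A2 replicate 2 alone lay far below the rest.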

How the data were processed

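Libraries of mRNA from SKOV3 cells (3 NC, 3 si-EIF5A2) were sequenced as paired reads. The table deposited by the authors holds whole-number estimated counts for each gene, and its low values lie in steps of 3.75, so 1 fragment gave more than 1 count. Expression was estimated with StringTie and ballgown in the study's methods, which do not say how the counts were made. The submitters' processing notes name Bowtie 0.12.2 and mouse builds, which do not go with human identifiers, and the aligner and human build are not given in the sources used here. Groups were taken from the sample titles. The members and gene lists were chosen with earlier results of these data known.

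Genes passing filterByExpr (16208) were fitted on the deposited estimated counts with edgeR 4.0.16 (R 4.3.3), using TMM factors and the robust quasi-likelihood test of condition, with p-values adjusted by Benjamini-Hochberg over all genes tested. Adjusted p in the text come from this fit, or from an alternative fit where one is named, and fits without a library filtered and adjusted over 16703 to 16893 genes. Called means an adjusted p under 0.05 together with a change of more than 1.5-fold. CPM used TMM library sizes. With 3 against 3 libraries an exact permutation test cannot give a two-sided p below 0.10, so none was run. In simulated counts for 15719 genes the step recovered 86.2% of 4-fold, 45.3% of 2-fold and 9.23% of 1.5-fold changes, and 9% of its calls at an adjusted p under 0.05 were false. By the step of 3.75, the totals of 46900204 to 74142267 counts stand for 12506721 to 19771271 fragments. The common biological coefficient of variation was 0.261.

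Symbols came from a gene name table, which matched 58472 of the 58825 identifiers, and exon lengths, GC content and overlaps from GENCODE release 29 (58552 matched). Levels per length used the union of exons, which can include rarely used ones. Of 44 pseudogenes named after members, 17 had any count, together 0.193% of the members' counts. All 10 called members are named with 6 values, as are the cutting subunits, PSMD14, PSMD4, PSME3, PSMF1 and POMP and the largest rise and fall of each role. The listed non-member genes are named where called, and some listed genes are not reported here. Other genes named were chosen after their values were seen. Promoters were RefSeq windows. Alternatives were DESeq2 1.42.0, other scalings and filters, a replicate block, a GC and length correction (a spline with 4 degrees of freedom), counts divided by their step and each library left out in turn.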

Additional observations from a re-analysis of the deposited data

How the results depend on the processing

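At an adjusted p under 0.05, 27 members were higher in edgeR's fit, where 18.0% of all genes tested were. The count was 26 by DESeq2 (15.7% of all genes) and 23 when low counts were not filtered (10.1%). It was 30 with the trend on GC content and length removed (23.4%). With 1 library left out it was 20 to 26 (14.0% to 15.6%). In each of these fits 5 members were lower, where 12.1% to 18.9% of all genes were. Leaving out 1 library gave 6 to 7 members called higher, 3 to 4 called lower and a median log2 fold change of 0.33 to 0.36. With the GC and length trend removed 16 members were called higher and 2 lower, the latter being PSMC3IP and PSME3IP1. By the threshold in the study's methods (unadjusted p under 0.05 and a fold change over 2), 0 were higher and 2 lower. The shares of all genes called in these fits or by that threshold are not given here. Without PSMC3IP and PSME3IP1 2 were called lower. The libraries' replicate numbers did not pair them, since deviations of same-numbered libraries correlated at -0.024, 0.0052 and -0.0027. With replicate number as a block 22 members were higher and 5 lower at the adjusted p, beside 15.1% and 16.2% of all genes. In that fit 6 members were called higher and 4 lower. Signs changed for 6 members that did not pass. With the GC and length trend removed PSMB6 was at 0.14 and PSMC4 at 0.013. With 1 library left out, PSMA1 ranged from -0.054 to 0.15, PSMB6 from -0.15 to 0.052, PSMC5 from -0.0083 to 0.23, PSMD10 from -0.015 to 0.15 and PSMG4 from -0.029 to 0.20. Over single genes and settings, 659 values kept their direction and side of the threshold, 44 no longer passed, 7 newly passed and 10 changed sign. The causes of these changes were not tested. The simulated recovery of 9.23% of 1.5-fold changes was over genes of all levels, with 194 genes changed, fewer than passed in the data. The members were more deeply counted, with a median SE of 0.09 against 0.17 for all genes tested.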
